A study of Mus musculus with 7 samples.

Results

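The surrogate light chain genes of the mouse are Vpreb1, Vpreb2, Igll1 and the related Vpreb3. Peaks of chromatin accessibility were taken for these 4 of 21938 protein-coding genes when they overlapped the gene body or the 10 kb on either side of it, in GENCODE M21 on mm10 (GRCm38). This gave 109 of the 647973 peaks called by ATAC-seq (sequencing of DNA fragments released from open chromatin) in 7 libraries. Merging peaks that overlapped between libraries gave 19 regions of 145247.

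Sorted B-cell progenitors of 3 successive stages (pre-proB, then proB, then preB) were profiled, with 1 library for each of 7 groups. WT mice were Ergfl/fl, with floxed Erg alleles and no Cre. Erg KO pre-proB cells were Rag1CreT/+;Ergdelta/delta, in which Cre expressed from the Rag1 gene had deleted Erg in lymphoid cells. Rescue pre-proB, proB and preB cells were Rag1CreT/+;Ergdelta/delta;IgHVH10tar, and thus lacked Erg but had a heavy chain allele of the immunoglobulin locus in rearranged form, which the paper gives as heterozygous. The study's mice were of both sexes, on a C57BL/6J background, and its main methods give 1 age range for all of them. Its supplement gives a narrower range for the mice used for RNA-seq. The age of those behind each library, and whether animals were pooled, is not given in the sources used here. Groups followed the sample titles. The source names of the 3 Rescue libraries contradict their titles (proB where the title has pre-proB, preB where it has proB, pre-proB where it has preB), so each Rescue value belongs to the library with that title. By the study's cell definitions, all 3 stages were B220+ and lacked NK1.1 (an NK-cell marker) and CD11c (a marker of dendritic cells), and no T-cell marker is listed. With 1 library a group, no difference between groups could be tested, and intervals cover counting error only.

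Before light chain genes rearrange, B-cell progenitors pair the immunoglobulin heavy chain with a surrogate light chain. Igll1 encodes its lambda5 part, and Vpreb1 and Vpreb2 encode its VpreB part. The complex reaches the cell surface with the signalling chains Cd79a and Cd79b as the pre-B-cell receptor, a checkpoint at the proB to preB transition. Vpreb3 encodes a related protein that stays inside the cell and binds heavy chains there. Erg is a transcription factor of the ETS family, whose members bind DNA around a GGAA core, and the comparison of WT with Erg KO and Rescue cells asked which sites of open chromatin depended on it.

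Vpreb1 (ENSMUSG00000059305.12) lies at chr16:16868403-16870843 on the minus strand, and Igll1 (ENSMUSG00000075370.12) lies downstream of it at chr16:16860671-16863985 on the same strand. Vpreb2 (ENSMUSG00000059280.4) lies on the plus strand of the same chromosome at chr16:17980428-17981273. Vpreb3 (ENSMUSG00000000903.3) lies at chr10:75943057-75949657 on the plus strand, and is annotated with 2 start sites. Distances below run in the direction of transcription from the start of the main transcript of each gene, which for Vpreb3 is the downstream site. The 250 bases before each start site are shown because the start-site peaks described below had their summits there. They were read from GRCm38 in the direction of transcription, and capitals mark matches to the motifs named after them. The windows were chr16:16869256-16869505 for Vpreb1, chr16:17980178-17980427 for Vpreb2, chr16:16863986-16864235 for Igll1 and chr10:75948050-75948299 for Vpreb3. The RefSeq annotation starts Vpreb2 at 17980565 instead of 17980428, so its window and matches depend on the annotation. The other genes start at the same base in both.
Vpreb1: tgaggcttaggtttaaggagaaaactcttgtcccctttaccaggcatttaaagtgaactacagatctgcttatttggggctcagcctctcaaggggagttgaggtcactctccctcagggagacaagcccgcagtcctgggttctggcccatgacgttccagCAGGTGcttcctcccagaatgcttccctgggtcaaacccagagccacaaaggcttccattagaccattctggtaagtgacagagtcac
Vpreb2: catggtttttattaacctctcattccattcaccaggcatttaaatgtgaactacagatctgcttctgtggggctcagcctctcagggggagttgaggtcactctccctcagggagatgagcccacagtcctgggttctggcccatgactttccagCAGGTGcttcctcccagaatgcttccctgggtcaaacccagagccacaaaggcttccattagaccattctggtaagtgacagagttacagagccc
Igll1: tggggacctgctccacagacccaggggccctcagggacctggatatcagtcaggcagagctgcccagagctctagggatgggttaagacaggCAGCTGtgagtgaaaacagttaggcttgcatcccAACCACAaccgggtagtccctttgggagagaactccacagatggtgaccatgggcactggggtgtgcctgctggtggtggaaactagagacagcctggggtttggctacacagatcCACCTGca
Vpreb3: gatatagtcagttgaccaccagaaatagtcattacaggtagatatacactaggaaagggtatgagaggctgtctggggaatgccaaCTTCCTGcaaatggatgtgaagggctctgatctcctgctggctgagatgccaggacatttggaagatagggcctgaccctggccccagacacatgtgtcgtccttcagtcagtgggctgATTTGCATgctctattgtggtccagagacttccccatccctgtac

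Motifs of factors known from B-cell promoters were searched on both strands. For the E proteins the letters were CAGGTG and, with the other middle bases, CAGCTG. For the ETS family they were CAGGAAG and, as a second form of the same core, CCGGAAG. The others were CCCNNGGGA for EBF, GAGGAAGT for PU.1, whose core is that of the ETS family, then TGTGGTT for the RUNX factors, ATGCAAAT for the octamer and, for the TATA box, TATAAA. Vpreb1 and Vpreb2 each held 1 E protein match and Igll1 held 2, while 26.8% of the 41520 windows of coding genes held at least 1. The single match to the ETS letters, on the reverse strand, was in Vpreb3, and 18.1% of windows held one. The bare GGAA core, read on either strand, stood in all 4 windows outside those letters. Igll1 also held a RUNX match (4.12% of windows) and Vpreb3 an OCT match (1.48%), the octamer known from immunoglobulin promoters. None of the 4 windows held the EBF (6.33%), PU.1 (2.34%) or TATA (10.8%) letters. Only these fixed letters were searched, so sites with other letters, or outside the windows, were not tested. A window without the letters is thus not shown to lack binding. In proB cells the paper reports that Erg and the EBF factor Ebf1 bind regulatory regions of both Igll1 and Vpreb1.

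The near-identical sequence of Vpreb1 and Vpreb2 means that a read of one could be placed in the other. An alignment of the 2 loci ran over 1408 columns from 212 bases before the Vpreb1 start site, with 96.9% identity, 40 substitutions and 3 gap columns. Before the start sites it held 7 substitutions in 209 aligned bases, and the E protein match CAGGTG stood in both copies. Reads were 75 bases long, and in the peaks at the start sites few 75-base stretches occurred elsewhere in the genome. In WT proB this was 11.5% of the stretches of the Vpreb1 peak and 4.20% of those of the Vpreb2 peak. In the other libraries with a peak the share was 3.72% to 4.30% for Vpreb1 and 3.77% to 5.12% for Vpreb2. The start-site peaks of Vpreb3 held 0 such stretches, and so did those of Igll1 in the 6 libraries other than WT proB, where the wide peak held 1.35%.

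**Figure D1:**
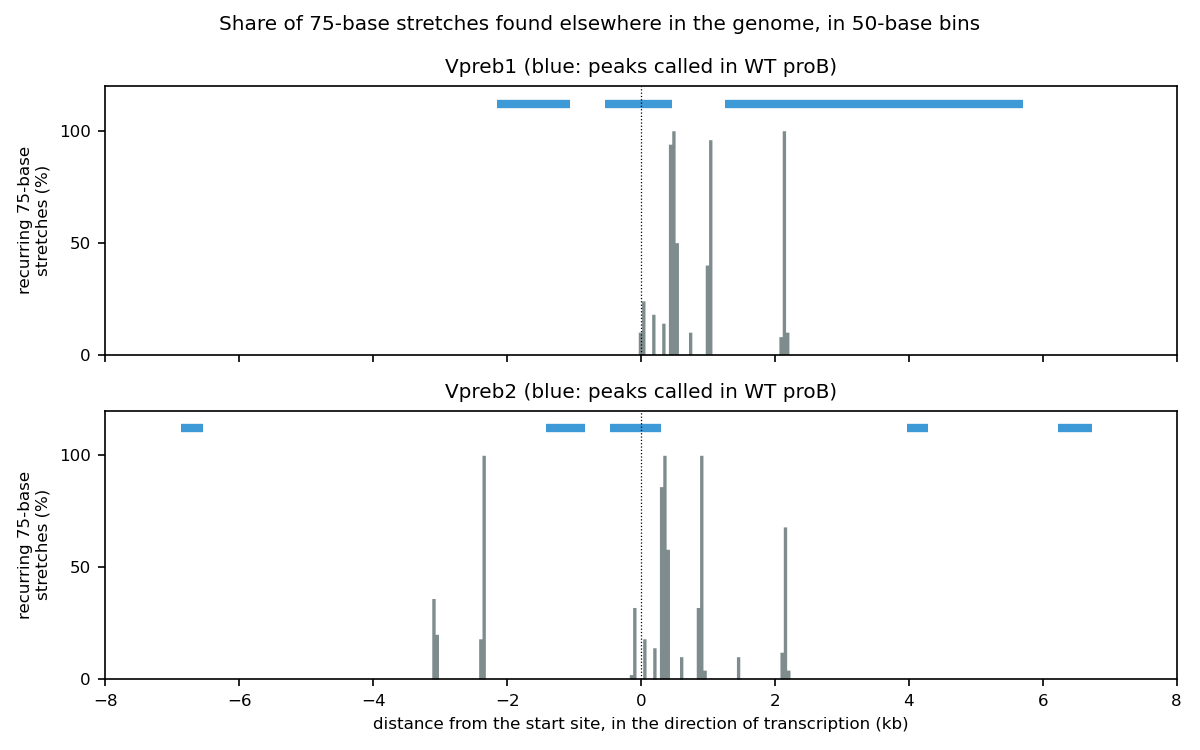
Percentage of 75-base stretches that occur elsewhere in GRCm38, in 50-base bins, against distance in kb from the start site of Vpreb1 (top) and Vpreb2 (bottom); blue bars are the peaks called in WT proB. Recurring stretches stood mostly downstream of both start sites, and they made up 11.5% of the Vpreb1 and 4.20% of the Vpreb2 start-site peak of that library.

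The values below are the fold of a peak, the deposited ratio of the fragment pileup at the summit to the library's background, each with 1 added. The lowest called fold was between 2.32 and 2.63 in the 7 libraries, so a site without a peak may still have held up to about that fold. Background pileups, a measure of relative depth, were between 3.49 and 4.6, and the lists held 76465 to 105649 peaks. Promoter peaks, which overlapped the 1 kb on either side of a start site, were found for 61.4% to 65.5% of coding genes. Promoter peaks marked all 10 B-lineage marker genes in each proB and preB library, and at pre-proB 9 in WT, 7 in Erg KO and 8 in Rescue cells. The summed folds of these B-lineage peaks at pre-proB did not fall with the counts (251 in WT, 252 in Erg KO and 264 in Rescue). Of 10 T-cell markers the pre-proB counts were 5, 8 and 8 in that order, with summed folds of 142 in WT, 171 in Erg KO and 180 in Rescue, and Cd3e and Cd3d had none in any library. Cd4, Bcl11b and Tcf7 had a promoter peak in the Erg KO and Rescue libraries of that stage and none in WT pre-proB. Each also had one in WT proB, which had 6 of the 10 T-cell markers and a summed fold of 183. Other lists are given for pre-proB in the order WT, Erg KO and Rescue. NK and innate lymphoid markers gave 7, 7 and 7 (summed folds 160, 161 and 186). Plasmacytoid dendritic markers gave 10, 10 and 10 (512, 549 and 590). Myeloid markers gave 5, 5 and 7 (104, 116 and 125). The part of other cell types in the pre-proB results was not tested, and fewer cells with an open site cannot be told apart from a less open site in each cell.

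In WT cells the windows of the 4 genes held 18 peaks at pre-proB, 18 at proB and 16 at preB. Rescue cells gave 12, 18 and 16 at these stages, and Erg KO pre-proB gave 11, so the Erg-deficient pre-proB libraries had the lowest counts. The Vpreb2 window held 0 peaks in both of these, while WT cells gave 2, 5 and 2 and the later Rescue stages 3 and 2. The overlapping windows of Vpreb1 and Igll1 held 4 to 6 and 5 to 7 peaks, and that of Vpreb3 held 6 to 9. Over all coding genes the median was 3 peaks in each library but WT preB, where it was 2. In WT pre-proB, where Vpreb2 had 2 weak peaks (folds 4.26 and 4.46), 31.3% of coding genes had fewer.

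**Figure D2:**
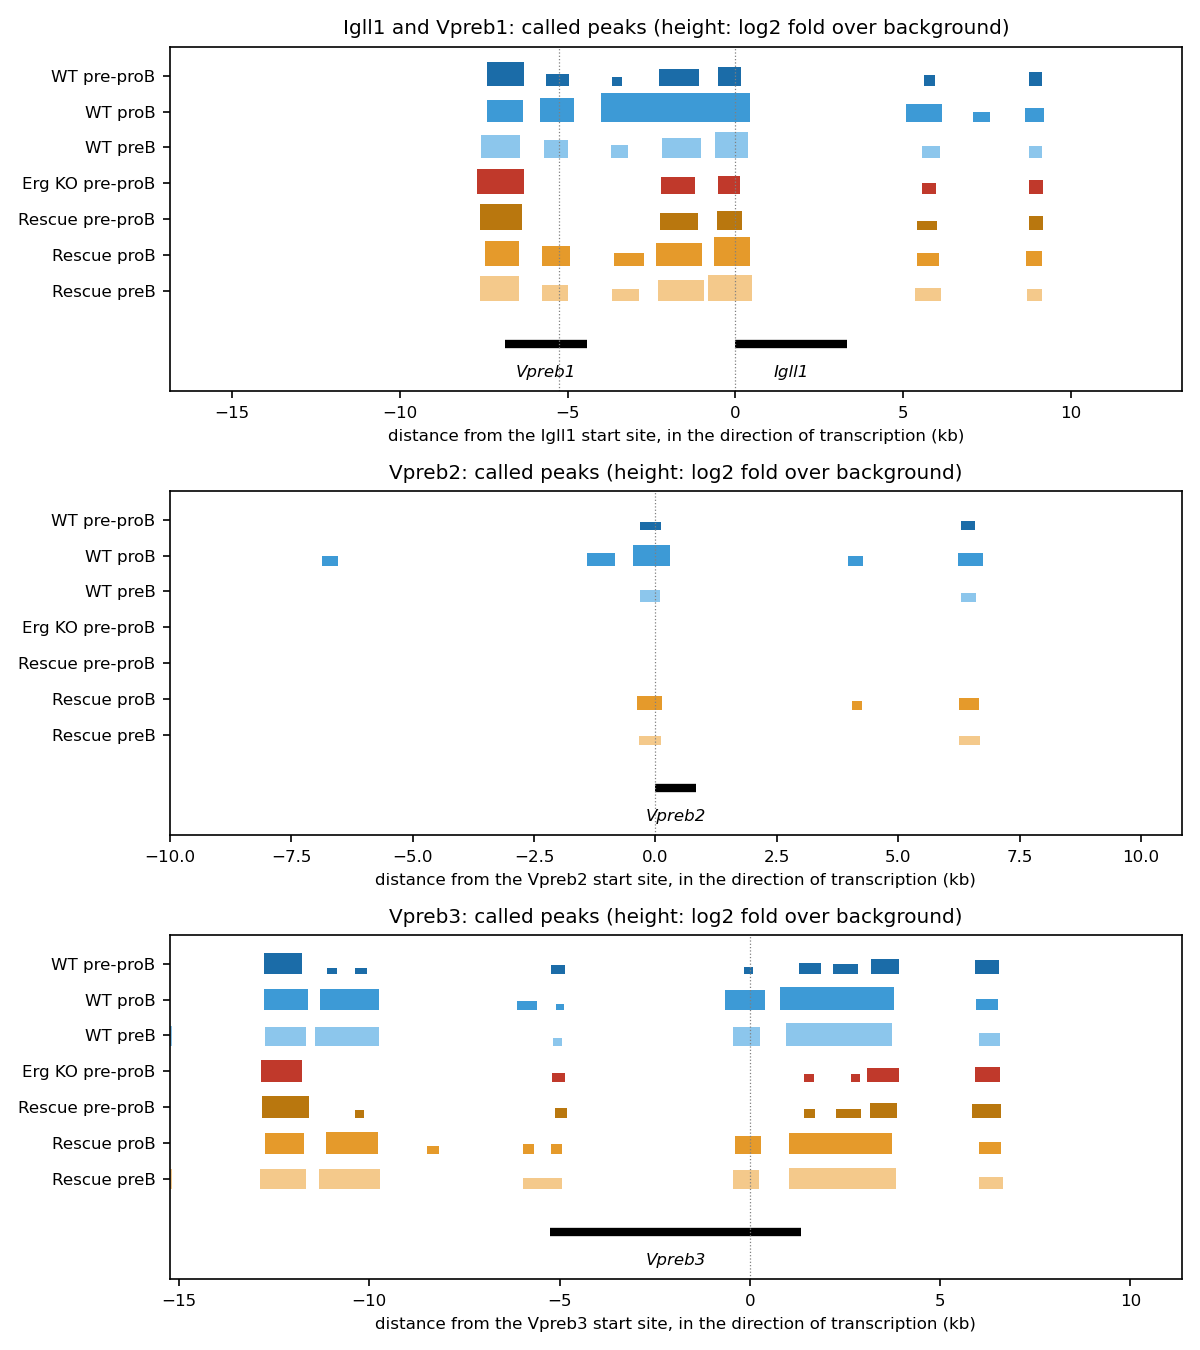
Peaks called in each library (rows) around Igll1 and Vpreb1 (top), Vpreb2 (middle) and Vpreb3 (bottom), against distance in kb from the start site of the gene named on the axis; block height is log2 of the fold over background, black bars are gene bodies and dotted lines start sites. The Vpreb2 rows of Erg KO and Rescue pre-proB are empty, and a single WT proB peak runs from Igll1 to beyond 4 kb upstream.

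Igll1, the lambda5 gene, had the highest start-site peak of the 4 genes in every library. In WT cells its fold was 25.0 at pre-proB, 141 at proB and 81.3 at preB. Rescue cells gave 21.6, 114 and 86.7 at these stages, and Erg KO pre-proB gave 20.9. The 3 pre-proB libraries were the lowest and their 95% Poisson intervals overlapped (20.9 to 29.7 in WT, 17.2 to 25.1 in Erg KO, 18.0 to 25.8 in Rescue). The peak was thus present at close to the WT level without Erg, and WT proB was 5.65-fold above WT pre-proB. These values concern accessibility, not expression. In Erg KO pre-proB cells the paper reports reduced expression of genes that include Igll1 and Vpreb1.

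A site at -1553 bp from Igll1 also had its lowest folds at pre-proB. They were 18.6 in WT, 16.3 in Erg KO and 17.5 in Rescue cells at that stage, with overlapping intervals. At later stages it was 27.4 in WT preB cells, with 40.1 and 34.9 for proB and preB of the Rescue, and the wide start-site peak covered the site in WT proB. Past the Igll1 gene, a site at 8956 bp varied little. Its folds were 11.0, 10.7 and 7.23 over the WT stages, 10.7, 10.7 and 8.05 over the Rescue stages and 10.8 in Erg KO cells. The site at 5798 bp stood apart in 1 library. Its fold was 19.6 in WT proB (interval 16.04 to 23.7), while the other 6 libraries lay between 4.65 and 9.70.

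Vpreb1 had a start-site peak in 5 of 7 libraries. In WT cells its fold was 8.53 (interval 6.23 to 11.4) at pre-proB, 55.6 at proB and 21.0 at preB. Rescue cells gave 25.2 at proB and 16.9 at preB, and neither Rescue nor Erg KO cells had a called peak at pre-proB. Taking the lowest called fold of the libraries without a peak, the WT pre-proB value was 3.58 times that of Erg KO cells and 3.67 times that of Rescue cells at that stage. At the lower end of the WT interval these ratios were 2.61 and 2.68. Among the proB libraries, WT was 2.21-fold above Rescue, and among the preB libraries the intervals overlapped (17.1 to 25.7 in WT, 13.5 to 21.0 in Rescue).

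A further peak, 1789 bp past the Vpreb1 start and between Vpreb1 and Igll1, was seen in the same libraries. Its fold was 4.46 at WT pre-proB and 8.55 at WT preB, with a wider peak over it in WT proB. Rescue cells gave 8.69 at proB and 7.43 at preB, and the pre-proB libraries without Erg had no peak there. The promoter of Top3b, a DNA topoisomerase gene whose start overlaps the 5' end of the annotated Vpreb1 body, lay -1552 bp from the Vpreb1 start. Its fold at pre-proB was 58.0 in WT, 59.6 in Erg KO and 69.0 in Rescue cells. In the other 4 libraries it was between 43.0 and 67.7, so all 7 libraries had a strong peak there.

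Vpreb2 had its start-site peak in the same 5 libraries, at lower folds. WT cells gave 4.26 (interval 2.71 to 6.42) at pre-proB, 36.6 at proB and 7.01 at preB. Rescue cells gave 9.35 at proB and 5.16 at preB, and the pre-proB libraries without Erg had no called peak. The WT pre-proB value was close to the calling limit. It was 1.79-fold the lowest called fold of the Erg KO library, and 1.14-fold at the lower end of its interval, so a 2-fold difference was not shown. WT proB stood above every other library, 3.91-fold over Rescue proB, which came next, and 8.57-fold over WT pre-proB.

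The other 4 sites near Vpreb2 had folds under 10, and each was called in WT proB. A site at 6442 bp had folds of 4.46, 9.60 and 4.60 over the WT stages, and of 6.90 and 5.16 at Rescue proB and preB. Sites at -1126 bp (fold 9.60) and -6702 bp (5.54) were called in WT proB alone. A site at 4131 bp was called in WT proB (5.17) and Rescue proB (4.01).

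Vpreb3 had a peak at its downstream start site in the same 5 libraries as Vpreb1 and Vpreb2. WT cells gave 3.30 (interval 1.97 to 5.23) at pre-proB, 27.9 at proB and 25.0 at preB. Rescue cells gave 18.3 at proB and 23.9 at preB. The interval of the WT pre-proB peak reached below the lowest called fold, so a difference from the pre-proB libraries without a peak was not detectable at this depth. Unlike Vpreb1 and Vpreb2, Vpreb3 was about as open in WT preB as in WT proB, and their intervals overlapped (from 20.6 in WT preB, and from 23.6 to 32.7 in WT proB).

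At the upstream start site of Vpreb3 a weak peak was called in all 7 libraries, with folds from 2.95 in WT proB to 7.22 in Rescue preB. Past the end of the gene, at 1568 bp from the main start, folds were 6.78, 46.2 and 46.7 over the WT stages, 4.11, 31.6 and 38.0 over the Rescue stages and 3.48 in Erg KO cells. The pre-proB libraries were again the lowest, and their intervals overlapped. Further sites at 2746 and 3552 bp were separate peaks at pre-proB (folds of 5.62 and 13.2 in WT, 3.48 and 10.6 in Erg KO, 4.65 and 11.6 in Rescue cells) and lay under 1 wide peak in the later libraries. A site at -10252 bp, within the gene Gm867, had folds of 2.91, 32.3 and 24.8 over the WT stages and 3.57, 37.0 and 28.5 over the Rescue stages, and no peak in Erg KO cells. The peaks at the neighbouring genes Chchd10 (folds 26.1 to 40.2) and Gm5134 (6.46 to 12.8) were called in all 7 libraries.

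**Figure D3:**
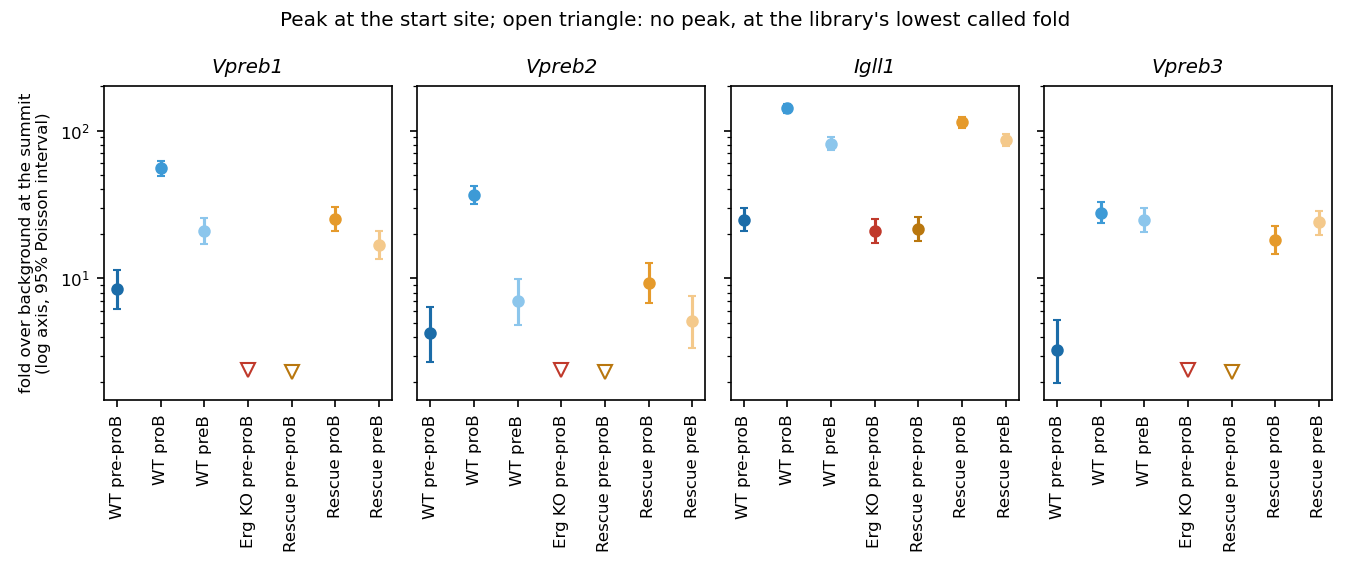
Fold over background (log axis) of the start-site peak of each gene in each library; points are 1 library with its 95% Poisson interval, and open triangles mark no called peak, drawn at the library's lowest called fold. Erg KO and Rescue pre-proB lack the peak at Vpreb1, Vpreb2 and Vpreb3, and have folds of 20.9 and 21.6 at Igll1.

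Of the 19 regions, 9 had a peak in all 7 libraries (47.4%, against 32.0% of all regions) and 4 in a single library (21.1%, against 17.8%). Across the stages of WT cells, 12 of 18 regions of the 4 genes were at least 2-fold higher in WT proB than in WT pre-proB, against 17.5% of all regions. In the reverse direction there were 0, against 25.4%. The median log2 ratio was 1.16 for the 18 regions and -0.11 for all regions. From WT proB to WT preB, 7 of 18 regions were at least 2-fold lower in WT preB, against 12.8%, and 0 were higher, against 6.44%. These 7 held the start sites of Vpreb1 and Vpreb2 and the Igll1 site at 5798 bp, but not the start sites of Igll1 or Vpreb3. They also held the sites at 7397 bp from Igll1 and at -6702 and -1126 bp from Vpreb2, called in WT proB alone. Against the lowest called fold of WT preB, and at the lower interval end, their ratios were 1.49, 1.43 and 2.74. Some of these counts moved with the settings. Counts under other settings, here and below, took both directions together and have no share of all regions beside them. At a −log10 q of at least 10 the regions apart were 7 between WT pre-proB and proB and 3 between WT proB and preB, and with a limit of 3-fold they were 7 and 2. Requiring a mutual overlap of 50% gave 12 between WT proB and preB. In Rescue cells, 7 of 16 regions were at least 2-fold higher at proB than at pre-proB, against 12.1%, and 0 were lower, against 27.8%. With a mutual overlap of 50%, 11 regions were apart.

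Between WT and Erg KO pre-proB, 1 of 14 regions was at least 2-fold higher in WT, against 1.43% of all regions, and 0 were higher in Erg KO, against 1.25%. The region was the Vpreb1 start site. Between WT and Rescue pre-proB the same region was the 1 of 14 higher in WT, against 1.42%, and 0 were higher in Rescue, against 1.72%. Both comparisons share the WT pre-proB library. The count was 0 in each at a −log10 q of at least 10 and with lists of equal length, which raise the lowest fold kept and so lower the ratio. A mutual overlap of 50% gave 3 for WT and Erg KO, in both directions together. For WT and Rescue pre-proB, folds scaled to the regions found in all 7 libraries gave 3 and the stages by source name gave 5. Erg KO and Rescue pre-proB differed by less than 2-fold in all 10 regions with a peak, with 0 higher in Rescue (0.793% of all regions) and 0 higher in Erg KO (0.361%), although by source name 8 regions were apart.

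At the later stages WT proB was at least 2-fold above Rescue proB in 6 of 19 regions, against 10.1%, and below it in 0, against 9.84%. By other settings the regions apart at this stage were 3 (−log10 q of at least 10), 2 (3-fold), 10 (mutual overlap of 50%) and 12 (source name). Those counts took both directions together, and the share of all regions under each setting was not counted, so they cannot be read against 10.1%. The 6 included the start sites of Vpreb1 and Vpreb2 and the Igll1 site at 5798 bp. The 6 also held sites called in WT proB alone, at 7397 bp from Igll1 and at -6702 and -1126 bp from Vpreb2. Against the lowest called fold of Rescue proB, and at the lower interval end, their ratios were 1.60, 1.54 and 2.94. At preB, 0 of 14 regions were at least 2-fold higher in Rescue, against 5.18%, and 0 were higher in WT, against 2.03%, while a mutual overlap of 50% gave 1 region apart. The median log2 ratio of Rescue preB over WT preB was 0.11 for these regions and 0.14 for all regions.

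**Figure D4:**
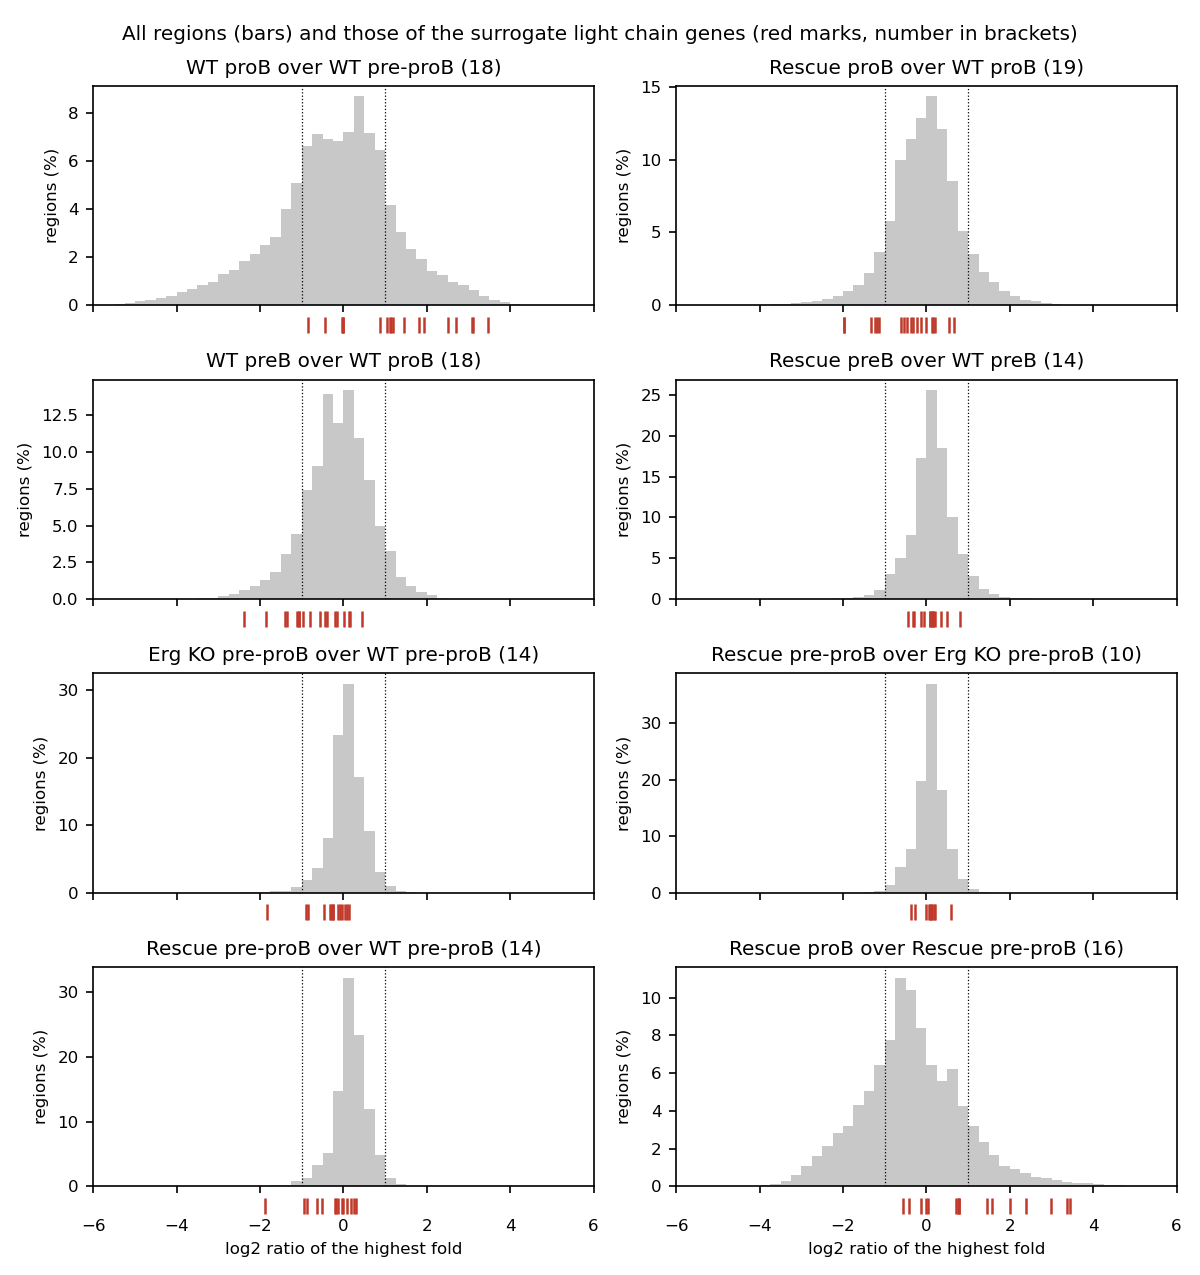
Percentage of all merged regions (bars) by log2 ratio of the highest fold between 2 libraries, with each region of the 4 genes as a red mark below the axis and dotted lines at 2-fold. The red marks lie to the right for WT proB over WT pre-proB (12 of 18 past 2-fold) and near 0 for Rescue preB over WT preB. A library without a peak in a region counted at its lowest called fold.

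By promoter peak, 4 of 4 genes were marked in WT pre-proB. Of these, 2 (Vpreb1 and Vpreb2) had none in Erg KO cells, against 0.8% of the 13877 coding genes marked in WT pre-proB. The same 2 had none in the Rescue pre-proB library, against 0.764%. Vpreb1 and Vpreb2 were thus among the 35 coding genes (0.16% of 21938) with a promoter peak in every library but these. With lists of equal length WT pre-proB kept 3 (Igll1, Vpreb1 and Vpreb3) and Erg KO cells kept Igll1, so that the genes marked in WT and not in Erg KO were then Vpreb1 and Vpreb3. Read by source name, the Rescue pre-proB library is the one titled preB, and 4 of 4 genes had a promoter peak in it. Vpreb3 kept its promoter peak in this count through its upstream start site. Counted over the comprehensive annotation, chosen after seeing the data, Vpreb1 kept it too, in both libraries, because the Top3b promoter peak lies at its 5' end. At a −log10 q of at least 10, WT pre-proB itself kept a promoter peak at Igll1 and Vpreb1 only.

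The other genes of pre-B-cell receptor signalling were mostly marked throughout. Promoter peaks marked 19 of 20 such genes in each proB and preB library, and at pre-proB 18 in WT, 17 in Erg KO and 18 in Rescue cells. Cd79a, a signalling chain of the receptor, had folds of 11.4, 80.1 and 81.3 over the WT stages and 3.57, 59.02 and 75.5 over the Rescue stages, and no peak in Erg KO cells. Zap70, a kinase best known from T cells and named after its values were seen, had none in any library.

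The coding genes most like each member were found by the mean absolute difference, over the 7 libraries, of the percentile of their strongest promoter peak within its list (0 where none was called). Nearest to Vpreb1 were Apobec4 (3.01 percentage points), Tex44 (3.25) and Flrt1 (5.12). Nearest to Vpreb2 were Ceacam2 (3.17), Cldn4 (6.27) and Trim66 (6.29). All 6 had no promoter peak in Erg KO or Rescue pre-proB, which the ranking itself favoured, since Vpreb1 and Vpreb2 counted as 0 there. Nearest to Igll1 were Cpm (1.29), Cth (1.796) and Eps8l2 (1.99), and nearest to Vpreb3 were Scn11a (5.72), Cdh17 (6.16) and Chst7 (6.31). For Vpreb3 the strongest promoter peak was not 1 site throughout. It was at the upstream start site at pre-proB and at the downstream one in Rescue proB and preB. In WT proB and preB it was the wide peak with its summit past the end of the gene.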

How the data were processed

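Chromatin accessibility was measured in 7 ATAC-seq libraries, 1 a group. According to the study's methods, 75-base paired reads were aligned to mm10 with Bowtie2 and peaks called with MACS2, 1 list a library. The submitters' processing notes name CASAVA 1.8.2 and Picard as well. Tool options, the handling of duplicates and any shift of read ends were not given in the sources used here, and can change the number and width of peaks. The sources differ on fragmentation (sonication or Tn5).

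The score deposited by the authors is the −log10 q multiplied by 10 and truncated. The fold deposited by the authors is a ratio of summit to background pileup. The −log10 p deposited by the authors ranked peaks within a list, and their −log10 q set the stricter list. Folds were whole multiples of 1 step per library (within 0.02 for 100% of peaks), which gave the pileups and their 95% Poisson intervals. A region without a peak took the library's lowest called fold, so that its ratio is a bound, counting error aside.

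Peaks overlapping by 1 bp were merged over all libraries into regions, and 2-fold differences were counted over all of them. Sites named by distance are summits joined within 250 bp, an addition made after seeing the data. Stretches of 75 bases were searched on both strands of GRCm38 without its 173 patch and alternate sequences. Merging and calling were tested on simulated data. Python 3.11.15, pandas 2.3.3, numpy 2.4.6 and numba 0.67.0 were used. The genes named are the 4 members, pathway genes with a peak in some libraries and not in others, and the 3 genes nearest each member. The values of 1 pathway gene are not reported here. The members, gene lists and rules were chosen with earlier results of these data known. Alternatives were a stricter q, equal list lengths, scaled folds, a 3-fold limit, other windows and overlaps, and the source names.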

Additional observations from a re-analysis of the deposited data

Results flagged for a closer look

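At the site 5.8 kb downstream of the Igll1 start the ratio of preB to proB had opposite signs in WT and Rescue cells. Its log2 ratio was -1.35 for WT preB over WT proB and 0.31 for Rescue preB over Rescue proB. The Rescue folds, 7.80 (95% Poisson interval 5.47 to 10.8) at proB and 9.70 (7.15 to 12.9) at preB, had overlapping intervals, so a rise in Rescue cells is not shown. Each value rests on 1 library a group, the difference between them was not tested, and the Rescue stages are those of the titles.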

How the results depend on the processing

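Of the recomputed values, 114 stayed close to the reported ones and 25 moved by more than 1.5 times. Counts of regions apart took both directions together, with no share of all regions for the alternatives. At a −log10 q of at least 10, the windows held 11 peaks in WT pre-proB, promoter peaks marked 2 genes at pre-proB in WT and 1 in Erg KO cells, and regions 2-fold apart were 7 for WT pre-proB and proB, 3 for WT proB and preB, 0 for WT and Erg KO pre-proB, 0 for WT and Rescue pre-proB, and 3 for WT and Rescue proB. With lists of equal length, promoter peaks were 1 in Erg KO pre-proB, and regions apart were 0 for WT and Erg KO and 0 for WT and Rescue pre-proB. Scaled folds gave 3 for WT and Rescue pre-proB. At 3-fold the counts were 7 for WT pre-proB and proB, 2 for WT proB and preB, and 2 for WT and Rescue proB. Requiring a mutual overlap of 50% gave 12 for WT proB and preB, 3 for WT and Erg KO, 10 for WT and Rescue proB, 1 for WT and Rescue preB, and 11 for Rescue pre-proB and proB. By source name, 4 promoters had a peak in Rescue pre-proB and 2 in Rescue proB, and regions apart were 5 for WT and Rescue pre-proB, 12 for WT and Rescue proB, and 8 for Erg KO and Rescue pre-proB. The comprehensive annotation, added after seeing the data, and a promoter window of 2500 bp each gave 3 genes in Erg KO and Rescue pre-proB. Apart from the higher lowest fold that the stricter and equal-length lists set by construction, the cause of these moves was not tested. No paired analysis was possible because each group has 1 library and no test was run. Depth limits what can be said of weak peaks: the WT pre-proB start-site peaks of Vpreb2 and Vpreb3 had pileups of 21 and 16, where the lowest called pileup was 12.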
